A study of Mus musculus with 4 samples.

Results

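Open chromatin at 4 loci of the endosomal Toll-like receptor pathway, Tlr9, Tlr3, Unc93b1 and Myd88, was compared between cDC1 and pDC. The loci were taken as windows of the mm9 mouse genome, on chromosome 9 from 106090000 to 106160000 for Tlr9, on chromosome 8 from 46440000 to 46540000 for Tlr3, on chromosome 19 from 3910000 to 3970000 for Unc93b1 and on chromosome 9 from 119210000 to 119280000 for Myd88. Every open interval and footprint that overlapped a window was counted. Intervals of both cell types that shared at least 1 bp were joined into regions, which gave 47 regions in the windows of 93615 in all. They held 43 of 83701 cDC1 intervals and 29 of 51941 pDC intervals, and 319 of 513689 cDC1 footprints and 205 of 312959 pDC footprints. Regions are numbered from the left within each window.

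The cells were grown from mouse bone marrow with cytokines, then with Flt3 ligand, and sorted as CD11c+ CD11b+ XCR1+ cDC1, a classical dendritic cell type, and CD11c+ CD11b- B220+ pDC, plasmacytoid dendritic cells. Omni-ATAC-seq, in which a transposase cuts accessible DNA, was performed on 2 samples per cell type. The authors pooled the samples, so each cell type has 1 list of peaks and 1 list of footprints, no spread between replicates and no p-value. The sources used here do not give the strain, genotype or age, nor whether the samples came from separate cultures, and the markers of the sort were not checked, since no mm9 annotation was used.

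Toll-like receptors of the endosome sense nucleic acids of microbes and viruses that a cell has taken up. Tlr9 binds DNA with unmethylated CpG and Tlr3 binds double-stranded RNA. Unc93b1 escorts these receptors from the endoplasmic reticulum to the endosome, and Myd88 is the adaptor through which Tlr9, but not Tlr3, signals. pDC are known for Tlr9 and for the interferon it induces, and cDC1 for Tlr3.

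In the RefSeq gene order of GRCm38, Tlr9 lies between Twf2 and Alas1, Tlr3 between Fam149a and Sorbs2, Unc93b1 between Aldh3b1 and Aldh3b3, and Myd88 between Oxsr1 and Acaa1a. The windows can therefore hold DNA of neighbouring genes, and without an mm9 annotation a region could not be assigned to a promoter, an exon or an intron. The DNA just before the starts of 3 of the 4 genes is shown to give the letters that factors of dendritic cells are known to read, with the 250 bases from the RefSeq promoters of GRCm38.p6 on chr9:106222348-106222597 (plus strand), chr8:45410381-45410630 (minus strand) and chr9:119340019-119340268 (minus strand). These positions cannot be set beside the mm9 positions of the regions. Capitals mark matches to the letters searched on both strands.
Tlr9: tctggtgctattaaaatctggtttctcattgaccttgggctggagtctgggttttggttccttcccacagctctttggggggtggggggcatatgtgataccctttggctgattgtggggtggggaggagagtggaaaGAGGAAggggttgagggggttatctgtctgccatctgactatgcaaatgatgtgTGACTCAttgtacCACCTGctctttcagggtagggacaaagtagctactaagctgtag
Tlr3: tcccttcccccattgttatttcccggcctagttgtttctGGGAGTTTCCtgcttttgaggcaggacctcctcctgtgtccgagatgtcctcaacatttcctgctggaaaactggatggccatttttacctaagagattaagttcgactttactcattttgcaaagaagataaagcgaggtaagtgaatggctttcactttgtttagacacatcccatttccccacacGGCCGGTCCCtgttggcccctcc
Myd88: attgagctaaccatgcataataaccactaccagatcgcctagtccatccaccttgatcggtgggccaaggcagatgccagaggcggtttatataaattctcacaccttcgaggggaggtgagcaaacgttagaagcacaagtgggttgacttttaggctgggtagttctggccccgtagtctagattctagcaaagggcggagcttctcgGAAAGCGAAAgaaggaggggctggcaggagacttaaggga

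The letters searched were GAGGAA (PU.1), TGANTCA (AP-1), CAGGTG (an E-box, read by factors such as Tcf4), TGTGGT (Runx), GAAA and GAAA with 2 bases of any kind between (IRF), and GGGA and CC with 4 bases of any kind between (NF-kB). The Tlr9 stretch held 3 matches that did not overlap, GAGGAA from 112 to 107 bases before the start, TGACTCA from 58 to 52 and CACCTG, the E-box on the other strand, from 45 to 40. Of 32851 RefSeq promoters, 23.3% held the PU.1 letters, 6.75% the AP-1 letters and 17.2% the E-box. The Tlr3 stretch held 2 NF-kB matches, and 17.6% of promoters held at least 1. The Myd88 stretch held 1 IRF match from 40 to 31 bases before the start, letters found in 2.98% of promoters. Runx letters stood in 14.0% of promoters and in none of the 3 stretches. The Tlr9 stretch had 0 CpG, against 6 in Tlr3, 9 in Myd88 and a median of 6 over all promoters. Of 25 genes listed for the pathway, 22 had a promoter in the table. The AP-1 letters were in 1 of them, Tlr9, and the IRF letters in 2, Myd88 and Tlr11. PU.1 letters were in 8, those of NF-kB and of Runx in 4 each, and the E-box in 3. A match is a description of letters and not a bound site.

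The Tlr9, Unc93b1 and Myd88 windows were open in both cell types, whereas the Tlr3 window was open mainly in cDC1. Intervals numbered 10 in cDC1 and 9 in pDC at Tlr9, 10 and 8 at Unc93b1, and 9 and 9 at Myd88. At Tlr3 they numbered 14 in cDC1 and 3 in pDC, which covered 6520 bp and 1123 bp. Per 100 kb, the 4 windows together held 14.3 intervals in cDC1 and 9.67 in pDC, against 3.17 and 1.97 over the span of the whole lists. The windows were chosen around genes and that span was not. Whether these loci held more open intervals than other gene loci was not tested.

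**Figure D1:**
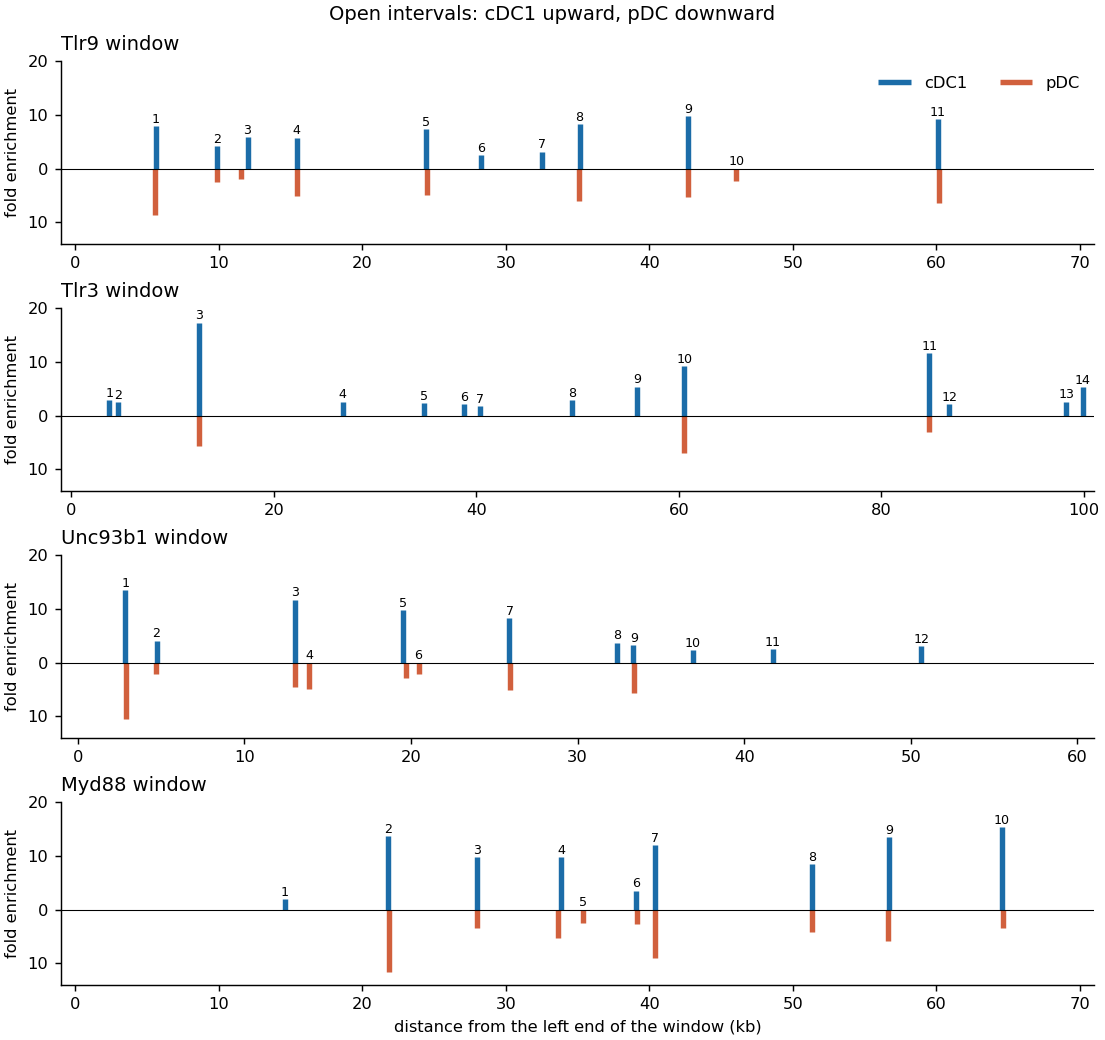
Open intervals in the 4 windows, by distance from the left end of the window (x axis, kb) and MACS2 fold enrichment (y axis), with cDC1 drawn upward and pDC downward from 0; each bar stands at the middle of an interval, its width is not to scale and the digits are region numbers. The Tlr3 window has 14 cDC1 bars and 3 pDC bars, while the other windows have 8 to 10 bars of each cell type.

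Both lists held 25 of the 47 regions (53.2%), the cDC1 list alone 18 (38.3%) and the pDC list alone 4 (8.51%). Over the whole lists 45.5% of regions were found in cDC1 only and 11.0% in pDC only, so the windows together were near the background. The windows differed among themselves. Regions found in cDC1 only numbered 11 of 14 at Tlr3, 4 of 12 at Unc93b1, 2 of 11 at Tlr9 and 1 of 10 at Myd88. In the Tlr3 window 3 of 14 cDC1 intervals (21.4%, 95% Wilson interval 7.57 to 47.6%) overlapped a pDC interval, against 22 of 29 (75.9%, 57.9 to 87.8%) in the other 3 windows. These intervals cover counting error only, and the difference was not tested. All 3 pDC intervals at Tlr3 overlapped a cDC1 interval, and 22 of 26 (84.6%, 66.5 to 93.8%) did so in the other windows. Over the whole lists 49.1% of cDC1 intervals overlapped a pDC interval, and 80.3% of pDC intervals a cDC1 interval. The Tlr3 share of cDC1 was thus below that of its list, and the share in the other 3 windows above it.

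**Figure D2:**
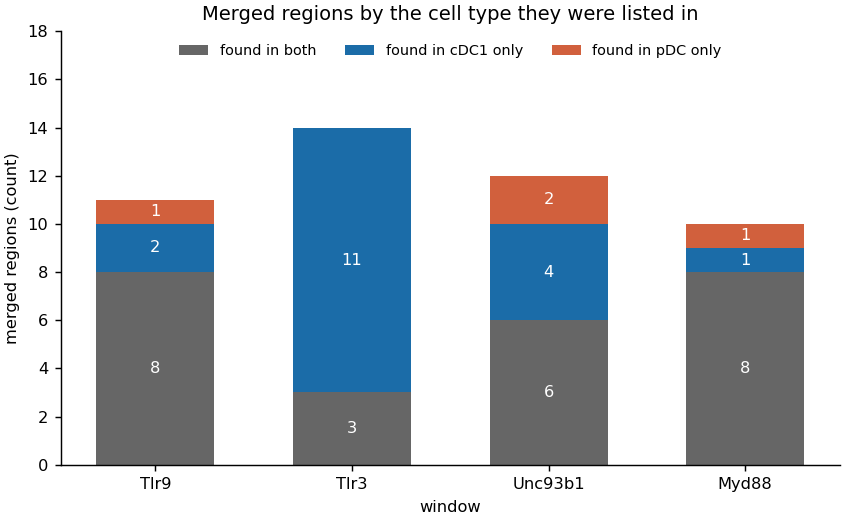
Number of merged regions (y axis) in each window (x axis) listed for both (grey), for cDC1 alone (blue) or for pDC alone (orange); digits are counts. The Tlr3 column holds 11 regions of cDC1 only and no region of pDC only.

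Most of the cDC1-only regions at Tlr3 were weak in cDC1 itself. Their median −log10 q, the MACS2 measure of significance, was 5.04, and their highest tag counts ran from 59 to 1044. Over the whole lists the median ratio of cDC1 to pDC tag counts in paired footprints was 3.28. Divided by this ratio, the highest tag count of 1 of the 11 regions was over 67.0, the first quartile of pDC regions. The part of the lower tag counts of pDC in the missing pDC intervals was not tested. With the cDC1 list limited to the length of the pDC list, 5 cDC1 and 3 pDC intervals were left at Tlr3, of which 3 of 5 in cDC1 were shared (60.0%). Among intervals with a −log10 q of at least 10, 6 of cDC1 and 2 of pDC were left at Tlr3, and with at least 50, 4 and 0. The limit of 50 was reached by 28.6% of cDC1 intervals at Tlr3, against 39.1% of all cDC1 intervals. Of all pDC intervals only 17.5% reached it, so this limit took more intervals from the pDC list everywhere.

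Region 9 of the Tlr3 window, on chromosome 8 from 46495073 to 46496632, was the strongest region found in cDC1 only in the 4 windows. Its cDC1 interval had 3 summits, a fold enrichment over the MACS2 background of 5.38 and a −log10 q of 161, higher than 82.7% of cDC1 intervals. It held 21 footprints with 197 to 1044 tags along 1560 bp, and no pDC interval was listed there. Divided by 3.28, its highest tag count was 319. The median pDC region had a highest tag count of 107. The part of the lower tag counts of pDC in the missing pDC interval of region 9 was not tested.

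Region 3, on chromosome 8 from 46452356 to 46452935, had the highest fold enrichment of the 4 windows, 17.3 in cDC1 (−log10 q 493, above 98.1% of intervals), and 5.75 in pDC (19.2, above 59.5%). The strongest summits of the cell types were 6 bp apart. Footprints were named shared where at least 50% of their bases were covered by footprints of the other cell type. The 3 cDC1 footprints had 1225, 1273 and 1402 tags, and the 6 pDC footprints had 76 to 117. The footprint with the most tags, from 46452705 to 46452713, had 1402 tags in cDC1, and its pair in pDC, from 46452706 to 46452713, had 115. After division by the median ratio of 3.28 this was 3.72-fold higher in cDC1 (exact 95% interval 3.08 to 4.54, counting error only). The same spot was thus marked in both cell types at levels that differed beyond counting error.

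Region 11, on chromosome 8 from 46524445 to 46524977, was also higher in cDC1. Its fold enrichment was 11.6 in cDC1 and 3.05 in pDC. The paired footprints had 484 and 53 tags, a scaled ratio of 2.79 (2.10 to 3.78). Region 10, from 46500212 to 46500864, was the strongest pDC interval of the Tlr3 window, where pDC had a −log10 q of 36.9 and a fold enrichment of 6.96, and cDC1 393 and 9.18. It held 3 pDC footprints, one of them with 173 tags, the most of any pDC footprint in the window, and 0 cDC1 footprints, so no pair could be compared. All 3 regions open in both cell types at Tlr3 had the larger fold enrichment in cDC1, by factors of 1.32 to 3.80. The same direction was found in 33821 of 40721 regions of the whole lists, with a median ratio of cDC1 to pDC of 1.45. Region 10, at 1.32, was thus below that median.

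Across the 4 windows 24 of the 25 regions open in both cell types had a pair of footprints, and the pair with the largest sum of tags was compared. At least 2-fold higher in cDC1 were 6 of 24 regions, against 8.93% of 31914 regions of the whole lists, and at least 2-fold higher in pDC was 1, against 12.6%. The 6 were both compared regions of Tlr3, regions 3 and 5 of Unc93b1 and regions 3 and 10 of Myd88. The region higher in pDC was region 9 of Unc93b1, and none of the 8 regions at Tlr9 reached the limit. With 1 pair per region, the median scaled ratio was 3.26 at Tlr3, 1.36 at Unc93b1, 1.19 at Myd88 and 1.01 at Tlr9, beside 0.994 over the whole lists. Over all pairs of a window, the median was 3.26 at Tlr3 (2 pairs), 0.813 at Unc93b1 (20), 1.11 at Myd88 (30) and 0.788 at Tlr9 (25). The Unc93b1 and Tlr9 medians thus changed side of 1 with the choice of pairs. Fold enrichment was the larger in cDC1 in 23 of the 25 regions, and in 33821 of 40721 regions of the whole lists.

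**Figure D3:**
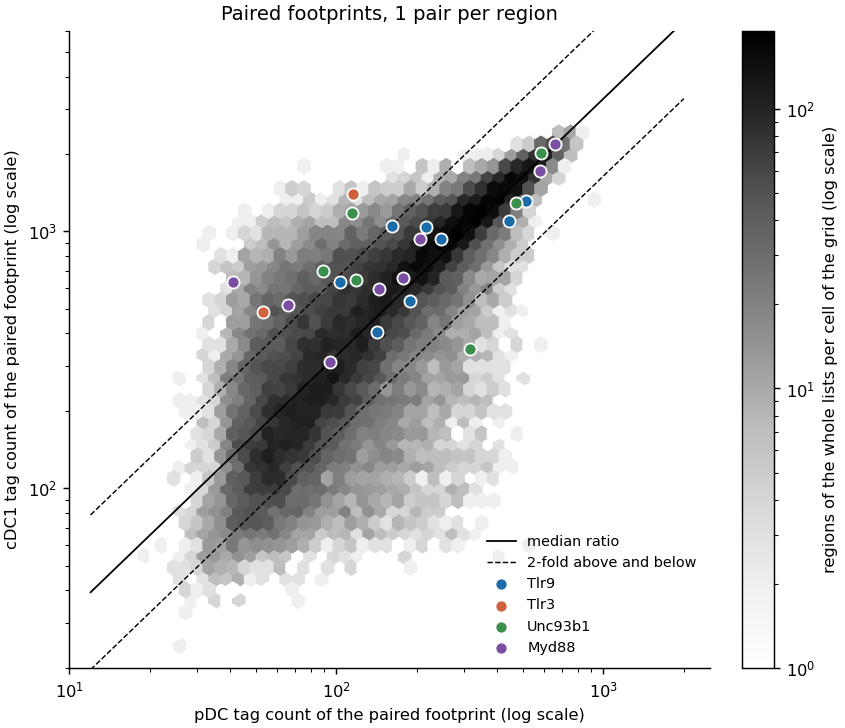
Tag counts of 1 footprint pair per region, with pDC on the x axis and cDC1 on the y axis (both log scales); grey shows 31914 regions of the whole lists, coloured points the 24 regions of the windows, the solid line a ratio of 3.28 and the dashed ones 2-fold above and below. Both Tlr3 points lie above the upper dashed line, the 8 Tlr9 points lie between the dashed lines and 1 Unc93b1 point lies below the lower one.

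In the window of Tlr9, the receptor for CpG DNA, all 8 regions open in both cell types stayed within 2-fold. The strongest in both lists was region 1, on chromosome 9 from 106095187 to 106095980, where cDC1 had a fold enrichment of 7.96 and a −log10 q of 299, and pDC 8.60 and 127. The paired footprints had 1312 and 511 tags, a scaled ratio of 0.784 (0.707 to 0.870), and 511 was the highest tag count of pDC in the window. Of these 8 regions it alone had the larger fold enrichment in pDC. Regions 4, 5, 9 and 11 had scaled ratios of 0.867 to 1.46.

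Region 8, from 106124438 to 106125788, held the most footprints of the Tlr9 window over both cell types, 20 of cDC1 and 16 of pDC, although region 11 held more of pDC, 18. Fold enrichment was 8.30 and 5.98. The footprints formed 2 main groups, with the highest tag counts at 1095 in cDC1 and 443 in pDC. Footprints covered by those of the other cell type numbered 12 for cDC1 and 10 for pDC. The pair with the most tags, from 106124900 to 106124905 in cDC1 and to 106124907 in pDC, had 1091 and 441 tags. Its scaled ratio was 0.755 (0.676 to 0.846), so that relative to the median of all pairs this pair was higher in pDC. Over the 10 pairs of the region the median scaled ratio was 0.609. Scaled by reads in peaks, the pair with the most tags had a ratio of 0.666, and scaled by mean tag counts 0.971.

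Regions 2 and 3 lay just under the limit on the cDC1 side. In pDC both were weak, with a −log10 q of 9.64 and 3.79. Their pDC fold enrichments of 2.47 and 2.01 were above 7.55% and 0.955% of the pDC list. Region 2, from 106099658 to 106100084, had a scaled ratio of 1.98 (1.68 to 2.35), from 1052 tags in cDC1 and 162 in pDC. In region 3, from 106101251 to 106102713, the ratio was 1.87 (1.52 to 2.33). The intervals overlapped in the left part, but to the right of 106101840 only cDC1 had an open interval. The cDC1 interval was 1361 bp wide and the pDC interval 590 bp, and their strongest summits were 909 bp apart. The footprint with the most tags of the window, from 106102346 to 106102362 with 1676 tags in cDC1, lay to the right of the pDC interval. When the highest tag count of each cell type was compared without pairing, region 3 was 4.58-fold higher in cDC1.

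Regions found in 1 cell type at Tlr9 stood near or below the middle of their lists. In cDC1 they were regions 6 and 7, the latter from 106122362 to 106122713 with a −log10 q of 33.3 and a highest tag count of 350. In pDC it was region 10, from 106135877 to 106136255, with a −log10 q of 5.09, 7 footprints and a highest tag count of 108.

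The Unc93b1 window, of the escort of these receptors, held regions that differed in both directions. Region 1, on chromosome 19 from 3912461 to 3913247, was the strongest in both lists, where the −log10 q was 667 for cDC1 and 178 for pDC, above 99.5% and 99.4% of the intervals of each list. The footprint with the most tags of both cell types started at 3912853, with 2010 tags in cDC1 and 584 in pDC, and the scaled ratio was 1.05 (0.958 to 1.15). The interval of this ratio held 1, so with this scaling no difference beyond counting error was seen. Scaled by reads in peaks the ratio was 0.926 and by mean tag counts 1.35, both outside the interval. Region 2 had a ratio of 1.67 (1.37 to 2.05).

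Region 7, from 3934972 to 3936909, was the widest of the 4 windows at 1938 bp and held 23 footprints in each cell type, with 20 of those of cDC1 and 17 of those of pDC shared. Each cell type had 3 summits listed there, and the scaled ratio was 0.829 (0.746 to 0.923). The strongest summit of cDC1 and that of pDC were 780 bp apart.

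Regions 3 and 5 of Unc93b1 were higher in cDC1. In region 3, from 3922665 to 3923436, the paired footprints had 699 and 89 tags, a ratio of 2.40 (1.92 to 3.02), and the fold enrichment was 11.7 in cDC1 and 4.47 in pDC. In region 5, from 3929018 to 3930056, they had 1181 and 114 tags, a ratio of 3.16 (2.61 to 3.87), with a fold enrichment of 9.71 and 2.96. Each of them had a pDC-only region on its right, region 4 from 3923564 to 3924255 and region 6 from 3930349 to 3930562. Region 4 had a −log10 q of 30.2, the largest of the 4 regions found in pDC only, and 5 footprints with 122 to 219 tags.

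Region 9 of Unc93b1, from 3942946 to 3943849, was the one region at least 2-fold higher in pDC. Fold enrichment was 3.31 in cDC1 and 5.64 in pDC, and the −log10 q was 26.7 and 66.4 although over the whole lists cDC1 had the larger values. The 7 cDC1 footprints had 117 to 357 tags and the 12 pDC footprints 191 to 342, so the unscaled counts overlapped. In the pair with the most tags, from 3943469 to 3943491 in cDC1 and to 3943480 in pDC, the counts were 348 and 317, which was 2.98-fold higher in pDC after scaling (2.55 to 3.48). Its left neighbour, region 8 from 3942109 to 3942627, was found in cDC1 only (−log10 q 34.1, highest tag count 268), the strongest of the 4 such regions of the window. The other 3, regions 10, 11 and 12, had a −log10 q of 7.31 to 11.7.

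In the window of Myd88, the adaptor of Tlr9, region 2 was the strongest region of all 4 windows in both cell types. Without an mm9 annotation this region could not be assigned to Myd88 or to a neighbouring gene such as Oxsr1. Region 2 lay on chromosome 9 from 119231100 to 119232529, where the −log10 q was 789 for cDC1 and 219 for pDC, with fold enrichments of 13.6 and 11.7. Shared were 14 of 22 cDC1 footprints and 15 of 17 pDC footprints. The footprint from 119231852 to 119231896 had the same first and last base in both cell types and 2175 and 657 tags, a scaled ratio of 1.01 (0.926 to 1.10). The highest pDC tag count of the windows, 692, stood in the same region from 119231956 to 119231962. The pair was therefore placed alike, and its scaled levels did not differ beyond counting error. Region 7, from 119249976 to 119250800, was the next within the Myd88 window in both lists, with 1721 and 581 tags and a ratio of 0.904 (0.823 to 0.995).

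Regions 3 and 10 of the Myd88 window were higher in cDC1. Region 10, from 119274250 to 119274892, had the largest scaled ratio of the windows, 4.71 (3.44 to 6.63), from 633 tags in cDC1 and 41 in pDC at a footprint from 119274484 to 119274497 in both. Fold enrichment was 15.4 in cDC1, above 97.8% of its list, and 3.43 in pDC, above 33.8%. In region 3, from 119237658 to 119238382, the pair had 515 and 66 tags, a ratio of 2.38 (1.84 to 3.13), with a fold enrichment of 9.79 and 3.42. The other 6 regions open in both cell types stayed within 2-fold, with regions 4, 6, 8 and 9 at ratios of 0.999 to 1.39. Found in 1 cell type were region 1, from 119224457 to 119224699, in cDC1 (−log10 q 1.71) and region 5, from 119245269 to 119245532, in pDC (7.39), higher than 0.389% and 31.7% of their lists.

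**Figure D4:**
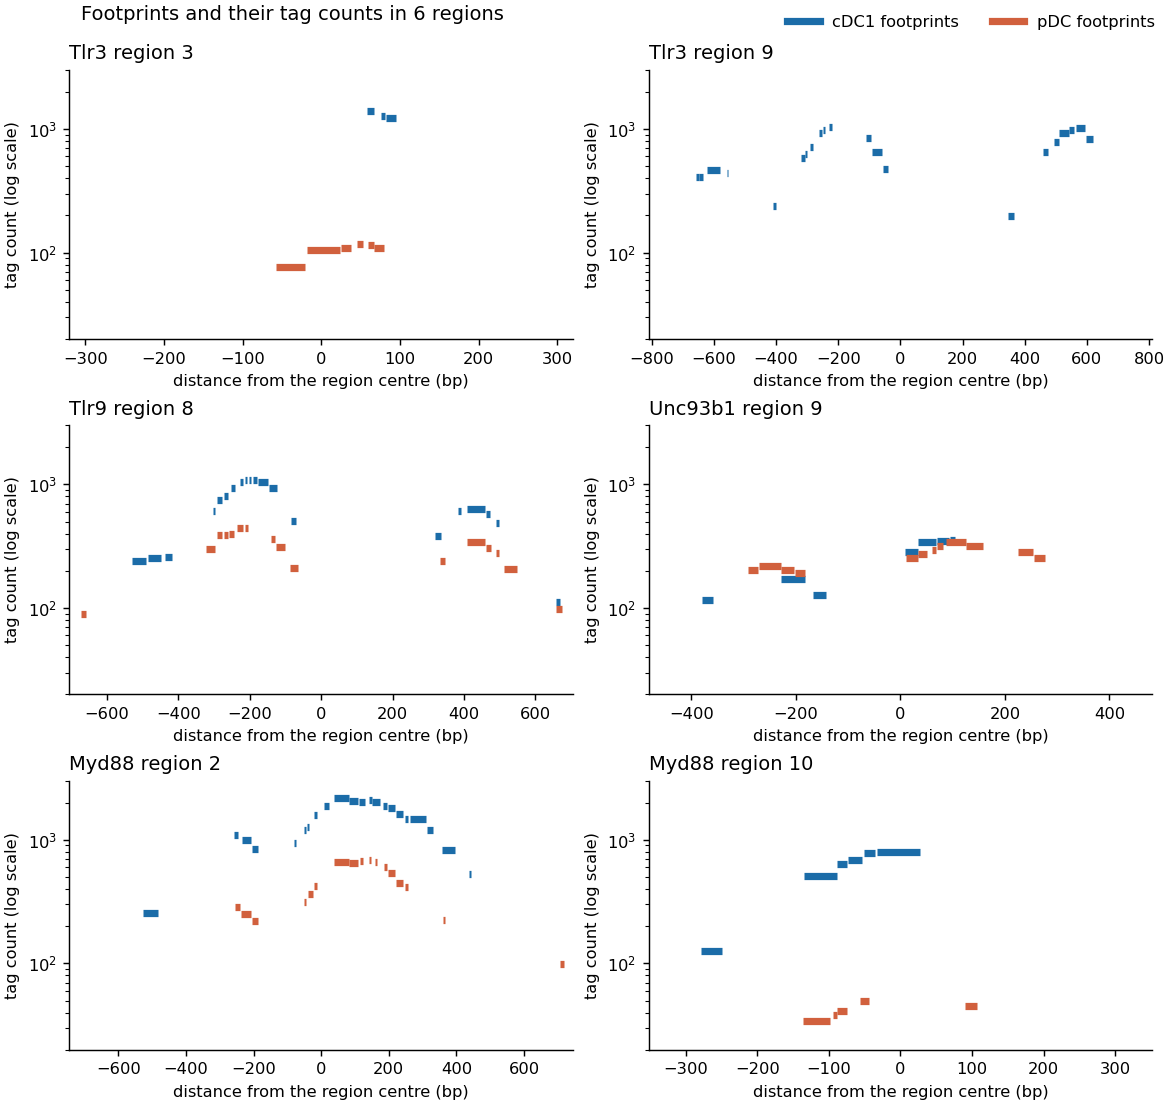
Footprints of cDC1 (blue) and pDC (orange) in 6 regions, by distance from the region centre (x axis, bp) and tag count, not scaled for depth (y axis, log scale); each bar spans 1 footprint. In Myd88 region 2 and Tlr9 region 8 the pDC bars follow the cDC1 bars at a lower level, in Unc93b1 region 9 they overlap in level, in Tlr3 region 3 and Myd88 region 10 they lie far below, and Tlr3 region 9 has cDC1 bars only.

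In cDC1 a larger share of footprints was shared in the windows of Tlr9, Unc93b1 and Myd88 than over the whole list, and the smallest at Tlr3. In pDC this held for Unc93b1 and Myd88. In cDC1, 42.7% of footprints were shared at Tlr9, 45.1% at Unc93b1, 50% at Myd88 and 7.69% at Tlr3 (6 of 78, Wilson interval 3.57 to 15.8%), against 28.6% over the whole list. In pDC the shares were 43.4%, 59.6%, 61.0% and 30.8% (4 of 13, 12.7 to 57.6%), against 44.4%. The Tlr9 share of pDC was thus close to that of its list. Footprints can be shared only inside regions open in both cell types. Limited to the shared intervals, the cDC1 shares were 50.7% at Tlr9, 52.9% at Unc93b1, 51.5% at Myd88 and 46.2% at Tlr3 (6 of 13), beside 47.9% over the whole list, so they stood much closer to their list. The pDC shares were then 47.8%, 66.7%, 66.7% and 30.8%, beside 52.7%.

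The share of paired footprints placed alike to the base was near the background. Of 77 pairs in the windows, 21 (27.3%) had the same first and last base in both cell types, against 21% of 91319 pairs of the whole lists. They numbered 11 of 30 at Myd88, 6 of 25 at Tlr9, 4 of 20 at Unc93b1 and 0 of 2 at Tlr3. Strongest summits of regions open in both cell types were a median of 31.0 bp apart, beside 30 bp over the whole lists.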

How the data were processed

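Peaks and footprints of cDC1 and pDC at 4 loci were taken from the deposited lists. In the authors' processing, adapters were removed with Trim Galore, Bowtie2 placed reads on mm9, SAMtools served to filter them, MACS2 called peaks and HINT-ATAC called footprints inside peaks, with replicates merged by cell type. The sources used here give no versions. Positions went past the GRCm38 end on 8 of 21 chromosomes, so mm9 was kept. The deposited peak lists give a score, the fold enrichment (a ratio to the MACS2 background), the −log10 q and a −log10 p that was not used, for each summit. The deposited footprint values are whole numbers, taken here as unscaled tag counts, and their counting window is not stated.

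Lines with the same ends were joined into intervals with their largest values. Footprints were paired 1 to 1 where each shared at least 50% of its bases, and ratios of tag counts were divided by the median over 91319 pairs and called at 2-fold. Wilson and exact 95% intervals cover counting error only, tags need not be independent, and reads carry no molecular identifiers. Described in full were the strongest region of each cell type and window, the strongest found in 1 cell type only, regions called different and the footprint with the most tags; Tlr9 regions 2, 3 and 8, Unc93b1 region 7 and Myd88 region 7 were added after their values were seen. The loci, gene list and motifs were chosen with earlier results of these data known. The overlap and pairing steps were tested on simulated data. Alternatives changed the overlap, the limit on the −log10 q, the list length, the window size, the scaling and the pairing. Python 3.11.15, numpy 2.4.6, pandas 2.3.3, scipy 1.17.1 and matplotlib 3.10.9 were used.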

Additional observations from a re-analysis of the deposited data

How the results depend on the processing

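The 7 regions called different in tag count kept their direction and stayed at or past the limit under the 6 alternatives of scaling, pairing and list length. These and a limit of 1.5-fold, under which no such call can be lost, called 6 to 9 of 24 regions higher in cDC1 and 1 higher in pDC. Over the whole lists they called 6.32% to 18.2% of regions higher in cDC1 and 5.92% to 22.5% higher in pDC. The count of 9 came with scaling by mean tag counts and with 1.5-fold, where the cDC1 shares over the whole lists were 16.8% and 18.2%. Tlr9 region 2 was called in addition by 4 of the 7, Tlr9 region 3 by 3 and Unc93b1 region 2 by 2. Ratios near 1 could change side with the scaling. Tlr9 region 1, at 0.784, was at 1.01 when scaled by mean tag counts, and Myd88 region 2, at 1.01, was at 0.891 when scaled by reads in peaks. With a −log10 q of at least 50, 25 cDC1 and 7 pDC intervals were left in the 4 windows and 24.0% of those of cDC1 were shared. Those left were 58.1% of cDC1 and 24.1% of pDC intervals of the windows, against 39.1% and 17.5% over the whole lists. With at least 10, 95% of pDC intervals were shared. With the cDC1 lists limited to the lengths of the pDC lists, 86.2% of cDC1 intervals and 44.3% of cDC1 footprints were shared. Where 1 bp of overlap sufficed, 61.0% of pDC footprints were shared, and inside shared intervals 51.3% of cDC1 footprints. Each of these alternatives takes shorter lists, a looser overlap or a smaller population, and what moved the values was not tested. The other 34 comparisons of totals stayed within their intervals or within 1.5 times. Whether the lower tag counts of pDC kept weak regions off its list was not tested. No paired analysis was possible because each list pools both samples of a cell type, and no replicate could be left out for the same reason.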

Other observations

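Region 10 of the Tlr3 window, with a −log10 q of 393 in cDC1, held 0 cDC1 footprints. Of 21544 cDC1 intervals with a −log10 q of at least 100, 114 (0.529%) held none, so such an interval was rare in this list. In pDC the same region held 3 footprints.

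With windows 20 kb wider on either side, the Unc93b1 window held 16 intervals in each cell type in place of 10 and 8, and the Tlr3 window 17 in cDC1 and 4 in pDC. These counts include the intervals of the narrower windows, and 4 of the 17 were shared (23.5%). The Myd88 window gained no interval in either cell type.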
